A study of Mus musculus with 4 samples.

Results

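The genes described here are 10 cytokines and chemokines that B lineage and plasmacytoma cells can make: Il10, Il6, Tgfb1, Ccl3, Ccl4, Ccl5, Lta, Ltb, Tnf and Csf1. They were chosen by name, and every probe set that the platform annotation gives to one of these symbols was taken, which gave 14 of the 45037 probe sets that are not array controls (4 for Csf1, 2 for Tgfb1 and 1 for each other gene). The samples are 4 clones of the mouse plasmacytoma line J558 (BALB/c, H-2Ld), each measured on 1 Affymetrix mouse GeneChip. In the 2 AID-silenced clones a pSilencer vector with a targeting sequence for AID, the activation-induced cytidine deaminase that starts antibody hypermutation and class switching, had been introduced together with a Neo vector. The 2 control clones had received the empty silencing vector and the Neo vector, and all 4 were picked after G418 selection, so each array stands for a single clone. The labels arrange the clones as pair 1 and pair 2, each with an AID-silenced and a control clone. A difference between the groups therefore cannot be told apart from a difference between clones picked after transfection, and an exact permutation test of 2 clones against 2 cannot give a p below 0.333.

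Cytokines are secreted or membrane-bound proteins that signal through receptors on neighbouring cells or on the producing cell itself. Interleukin 10 restrains macrophages and dendritic cells, and tumour necrosis factor and the lymphotoxins activate NF-kB through receptors of the TNF receptor family. Interleukin 6 is a growth and survival factor of plasma cells and is known for driving mouse plasmacytoma growth. Transforming growth factor beta 1 limits lymphocyte growth, Csf1 keeps macrophages alive, and the chemokines Ccl3, Ccl4 and Ccl5 attract monocytes and T cells.

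Most of these genes gave little signal in J558. MAS5 signals, the deposited intensities, were set against 27 probe sets for bacterial genes (Dap, Lys, Phe, Thr and Trpn), whose highest signals were 27.3 (pair 1) and 39.9 (pair 2) on the AID-silenced arrays and 41.9 and 38.8 on the control arrays. Il10, Ccl4 and Csf1 had a probe set above these controls in all 4 clones. Tnf and Tgfb1 were above them in some clones only, and Il6, Ccl3, Ccl5, Lta and Ltb in none. The bacterial controls are a low bar: among 28 probe sets of 14 genes of unrelated tissues, such as albumin and glial fibrillary acidic protein, the highest signals were 91.8 and 118 on the AID-silenced arrays and 90.7 and 82.6 on the control arrays. Of the members, the brightest Csf1 probe set lay above that second bar on all 4 arrays, Ccl4 on 3, and Il10 and the brighter Tgfb1 probe set on 1 each. Tnf lay above it on 0 arrays, since even its control clone signals of 62.5 and 74.1 were below the 90.7 and 82.6 of those arrays.

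**Figure D1:**
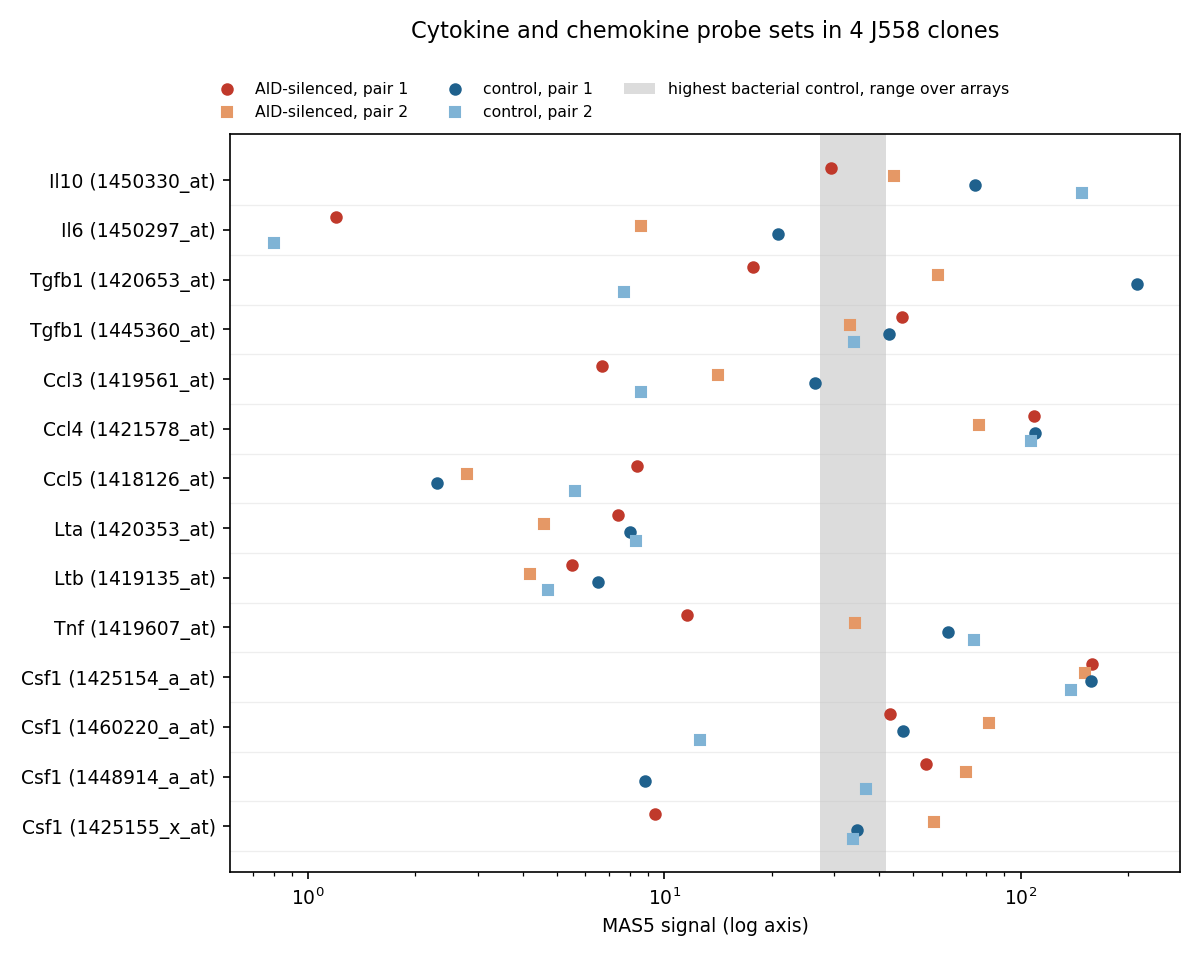
MAS5 signal (log axis) of the 14 cytokine and chemokine probe sets in the 2 AID-silenced and 2 control clones. The grey band spans the highest bacterial control signal over the 4 arrays, 27.3 to 41.9. Il10 and Tnf have both AID-silenced points left of both control points, and Tgfb1 has a single high point in the control clone of pair 1.

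The arrays were alike in signal level after scaling. Each was scaled to a trimmed mean of 500 and had a median signal between 52.7 and 54.9. The 3′ to 5′ ratios were 0.776 to 0.807 for Gapdh. For beta actin they followed the pair, at 1.27 in both clones of pair 1. In pair 2 they were 1.04 in the AID-silenced clone and 1.12 in the control clone. All 10 measured plasma cell markers, such as Sdc1, Xbp1, Irf4 and Jchain, were above the bacterial controls on every array. Of the 12 macrophage and monocyte markers, 7 and 5 were above them in the AID-silenced clones and 5 and 5 in the control clones, with summed signals of 1528 and 1231 against 2519 and 1387. Of 12 measured T and NK cell markers, 3 and 3 were above them in the AID-silenced clones and 5 and 5 in the control clones, with summed signals of 2027 and 2666 against 1195 and 2293. The macrophage markers Cd68 (572 to 866) and Csf1r (213 to 293) were above the controls in every clone and Mrc1 in 3 clones, whereas C1qa, Cd14 and Itgam were below them in every clone. Of the T and NK cell genes, Klrk1 (215 to 2104) and Gzma (299 to 688) were above in every clone, and Cd4 and Cd3d were below in every clone. Cd3e, a CD3 chain of the T cell receptor complex, had 23.7 and 14.9 in the AID-silenced clones, below the controls of those arrays. In the control clones it had 58.7 and 42.6, above theirs. The part of other cells in the results below was not tested.

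Promoters are shown for Tnf, Tgfb1 and Csf1, members above the bacterial controls in some or all clones for which a promoter sequence was at hand. None was at hand for Il10 or Ccl4. RefSeq sequences on GRCm38.p6 were matched for 7 of the 10 members. Each line gives the 250 bases before the annotated start, 5′ to 3′ on the gene's strand, with matches in capitals. The positions are chr17:35202008-35202257 on the minus strand for Tnf, chr7:25686752-25687001 on the plus strand for Tgfb1 and chr3:107760470-107760719 on the minus strand for Csf1.
Tnf: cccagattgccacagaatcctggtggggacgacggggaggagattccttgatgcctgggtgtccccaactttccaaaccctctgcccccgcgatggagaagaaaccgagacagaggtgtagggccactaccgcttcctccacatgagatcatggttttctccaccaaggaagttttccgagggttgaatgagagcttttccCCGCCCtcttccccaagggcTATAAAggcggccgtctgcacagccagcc
Tgfb1: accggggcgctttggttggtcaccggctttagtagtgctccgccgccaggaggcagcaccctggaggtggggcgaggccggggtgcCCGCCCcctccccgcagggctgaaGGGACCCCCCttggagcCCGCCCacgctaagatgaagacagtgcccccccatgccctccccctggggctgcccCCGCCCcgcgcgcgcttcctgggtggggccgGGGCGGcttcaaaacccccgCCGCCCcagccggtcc
Csf1: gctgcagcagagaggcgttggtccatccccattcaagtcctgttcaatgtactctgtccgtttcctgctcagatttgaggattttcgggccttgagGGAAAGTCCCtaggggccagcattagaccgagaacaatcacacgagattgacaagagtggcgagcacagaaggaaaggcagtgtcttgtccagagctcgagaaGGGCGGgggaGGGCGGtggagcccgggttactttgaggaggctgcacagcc
The motifs searched were the TATA box (TATAAA, on the gene's strand only) and, on both strands, the Sp1 GC box (GGGCGG), the AP-1 site (TGANTCA), the cyclic AMP response element (TGACGTCA) and the NF-kB consensus, and none of the matches in these 3 windows overlapped. The Tnf window held a TATA box at bases -29 to -24 and 1 GC box, and no match to the NF-kB consensus. The Tgfb1 window had no TATA box, 5 GC boxes and 1 NF-kB match, and the Csf1 window had no TATA box, 2 GC boxes and 1 NF-kB match at bases -154 to -145. Base composition differed as well, with 57.6% G and C for Tnf, 75.2% for Tgfb1 and 56.4% for Csf1, beside a median of 52.4% over all promoters. Over the 32851 promoters of the same length, 7.59% held the TATA box, 32.7% the GC box, 6.75% the AP-1 site, 1.55% the cyclic AMP response element and 7.25% the NF-kB consensus. Il6, which was not above background in any clone, had an AP-1 site and an NF-kB match at bases -44 to -35. A match is a description of the letters and was not tied to any level.

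Il10 and Tnf had lower signals in both AID-silenced clones than in both control clones, and neither difference passed the adjusted threshold. Il10, the immunosuppressive cytokine, had signals of 29.4 (pair 1) and 44.1 (pair 2) in the AID-silenced clones, against 74.3 and 149 in the control clones. The groups did not overlap, and the signals of the AID-silenced clones were only just above the bacterial controls of their arrays. By the second bar, the highest unrelated-tissue signals, only the control clone of pair 2 was above background (149 against 82.6). In pair 1 both signals were below that bar (91.8 and 90.7), under which no fold can be bounded in that pair. On the scale used for all differences, log2(signal + 16), the AID-silenced clones averaged 5.71 ± 0.29 and the control clones 6.93 ± 0.61 (SD, n = 2 each), which is a difference of -1.22 ± 0.43 (SE). Within the pairs the difference was -0.99 in pair 1 and -1.46 in pair 2. Limma was run across the 22519 probe sets whose mean log2(signal + 16) reached that of a signal of about 49.4. There the p of Il10 was 0.0263 and its adjusted p 0.9996, so the difference did not pass the threshold of 0.05. Il10 entered that test through the control clones, since both AID-silenced signals are below the filter. Of the 12 T and NK cell markers, 3 were above the bacterial controls in each AID-silenced clone and 5 in each control clone. That count, which includes Cd3e, moved the same way as Il10 and Tnf. By sign, 4 of the 12 were higher in both pairs, 6 lower and 2 opposite, beside 25.1% higher and 26.9% lower over all measured genes. Their summed signal was higher in the AID-silenced clone of each pair, with Klrk1 alone at 1356 and 2104 against 215 and 1643 in the control clones. The part of these markers in the Il10 and Tnf differences was not tested.

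Tnf, the inflammatory cytokine, had 11.6 and 34.2 in the AID-silenced clones and 62.5 and 74.1 in the control clones. Both AID-silenced values lay below the bacterial controls of their arrays and both control values above theirs, so the level in the AID-silenced clones is a bound. With the highest bacterial control as the floor, Tnf was at least 1.71-fold lower in the AID-silenced clones. By the second bar, the highest unrelated-tissue signals of 90.7 and 82.6, the control clone signals were themselves within background. Under that bar no fold can be bounded. The measured log2 difference was -1.51 in pair 1 and -0.84 in pair 2, which became -0.86 and -0.69 with the AID-silenced signals at the bacterial controls, and the mean of the measured values was -1.18 ± 0.46 (SE). Tnf was too dim for the filtered test, and limma without the signal filter gave it an adjusted p of 0.9996. In bulk RNA, fewer cells with a transcript and less transcript per cell cannot be told apart, and this holds for every member.

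Tgfb1 had its highest and its lowest signal in the 2 control clones. At its brighter probe set the signals were 17.7 and 58.4 in the AID-silenced clones and 211 and 7.7 in the control clones, so the control clone of pair 1 stood alone at the top and that of pair 2 at the bottom. The signal was below the bacterial controls in the AID-silenced clone of pair 1 and in the control clone of pair 2. With those controls as the floor, Tgfb1 was at least 5.25-fold lower in the AID-silenced clone in pair 1. On the same floor it was at least 1.36-fold higher in pair 2. Only the signal of 211 was above the highest unrelated-tissue signal of its array (90.7). Under that second bar no fold can be bounded in pair 2. The measured log2 values differed by -2.75 and 1.65. The other Tgfb1 probe set showed no such spread, with 46.3 and 33.1 in the AID-silenced clones and 42.7 and 34.1 in the control clones. Marco, a macrophage scavenger receptor, had its high value in the same control clone as Tgfb1: its signals were 8.5 and 3.9 in the AID-silenced clones and 1230 and 3.6 in the control clones, and its second probe set gave 3.9 and 2.9 against 524 and 3.9. Other macrophage markers differed from that pattern, among them Cd68 at 841 and 572 against 866 and 721 and Adgre1 at 58.2 and 91.6 against 46.6 and 20.3. Marco and Adgre1 were picked out after their values were seen.

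Csf1, the macrophage growth factor, was level across the clones at its brightest probe set, with 159 and 152 in the AID-silenced clones and 157 and 138 in the control clones. The mean log2 difference was 0.07 ± 0.31 (SE), and its adjusted p in limma was 0.9996. The 3 dimmer probe sets did not follow it or each other. The second brightest gave 43 and 81.2 in the AID-silenced clones against 46.8 and 12.6 in the control clones, and the dimmest gave 9.4 and 57.1 against 34.8 and 33.9. At the third brightest both AID-silenced clones were above both control clones, with 54.1 and 70.2 against 8.8 and 36.7. That is at least 1.38-fold higher when the control arrays are set at their bacterial controls. Both AID-silenced signals were below the highest unrelated-tissue signals of their arrays (91.8 and 118), under which no fold can be bounded. Limma without the signal filter gave that probe set an adjusted p of 0.9996. Csf1r, the receptor for Csf1, was likewise level at its brightest probe set, with 232 and 293 in the AID-silenced clones and 213 and 268 in the control clones.

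Of the member chemokines Ccl3, Ccl4 and Ccl5, Ccl4 alone was above the bacterial controls. Its signals were 109 and 76.2 in the AID-silenced clones and 109.5 and 107 in the control clones, so 3 clones were nearly equal and the AID-silenced clone of pair 2 was lower. The mean log2 difference was -0.21 ± 0.34 (SE), with an adjusted p of 0.9996 in limma. Ccl3 gave 6.7 and 14.1 in the AID-silenced clones against 26.5 and 8.6 in the control clones, and Ccl5 gave 8.4 and 2.8 against 2.3 and 5.6. No difference in Ccl3 or Ccl5 can be read from values this low. Ccl3 and Ccl4 adjoin each other on chromosome 11 among the measured genes.

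The lymphotoxin genes, which flank Tnf on chromosome 17 and whose products build lymphoid tissue, were not above background. Lta gave 7.4 and 4.6 in the AID-silenced clones and 8.0 and 8.3 in the control clones, and Ltb gave 5.5 and 4.2 against 6.5 and 4.7. Il6, the plasmacytoma growth factor, gave 1.2 and 8.6 in the AID-silenced clones and 20.8 and 0.8 in the control clones, all below the bacterial controls. These values do not show that the transcripts were absent, since the deposited table has no detection calls and a probe set can fail.

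Of the 3 member probe sets tested, 0 passed the adjusted threshold in limma, beside 0.00888% of all tested probe sets called. An unadjusted limma p under 0.05 was reached by 1 (Il10, admitted through the control clones), beside 3.5% of all tested probe sets. Without the filter 0 of 14 passed and 2 (Il10 and Tnf) had an unadjusted p under 0.05, beside 0.00444% called and 3.99% of probe sets with an unadjusted p under 0.05. With the pair as a block limma called 8 probe sets in all instead of 2, and none was a member: Il10 then had adjusted p = 0.545. Of the 14, 5 were lower in both pairs, 2 higher in both and 7 opposite, where 25.9% of all probe sets were lower and 25.8% higher in both. In 3 (Il10, Tnf and Lta) both AID-silenced clones were below both control clones, beside 15.5% of all probe sets, and in 1, the Csf1 probe set above, they were above, beside 15.5% as well. No member reached a 2-fold difference with matching signs in the 2 pairs, where 0.682% of all probe sets did so as higher and 0.744% as lower.

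Among the 11 member probe sets under the filter, measured differences past 2-fold within a pair were counted, although most of these signals lie below the bacterial controls. In pair 1, 4 were at least 2-fold lower and 1 higher in the AID-silenced clone, where 8.30% and 7.55% of all probe sets under the filter were. In pair 2, 0 were at least 2-fold lower and 2 higher, where 9.13% and 8.77% were. The Tgfb1 probe set was the 1 member whose measured values passed 2-fold with opposite signs in the pairs, as did those of 1.63% of probe sets under the filter. With signals below the bacterial controls set to those controls it was under 2-fold in pair 2. Of the 14 genes of unrelated tissues 2 had the same measured pattern, Apoa1 with differences of -1.61 and 1.70 and Crygd with 1.02 and -1.07.

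**Figure D2:**
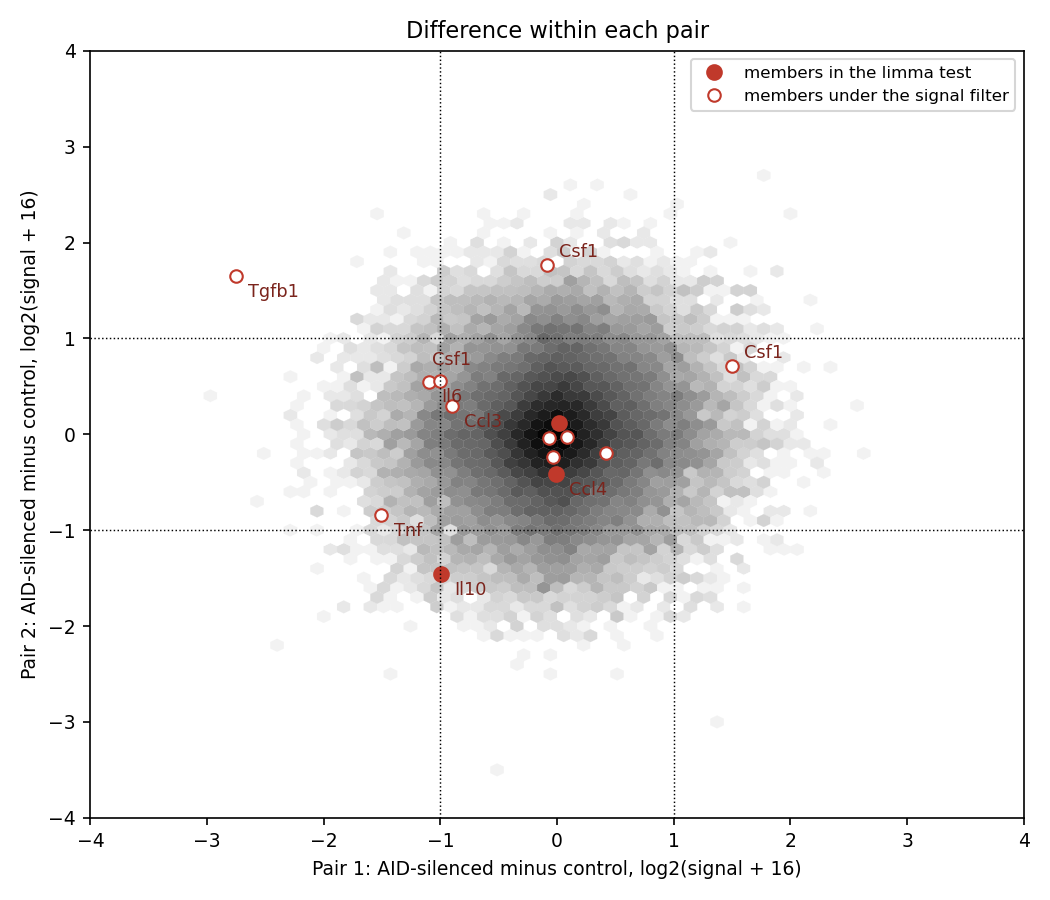
AID-silenced minus control difference of log2(signal + 16) in pair 1 (horizontal) and pair 2 (vertical), with all 45037 probe sets as grey density on a log scale and the 14 member probe sets in red, filled where they entered the limma test. Dotted lines mark a 2-fold difference. Il10 (-0.99 and -1.46) and Tnf (-1.51 and -0.84) lie at the lower left and Tgfb1 (-2.75 and 1.65) far into the upper left, all as measured, with the Tnf and Tgfb1 values resting on signals below the bacterial controls.

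Receptors for these cytokines were measured for 14 of 15 listed genes, and 8 were bright enough to be tested. Of the 8, 0 passed limma's adjusted threshold, 5 were higher in both AID-silenced clones than in their pair's control, 2 lower and 1 opposite, beside 26.7% higher and 27.5% lower over all 10475 tested genes. Over all 14 measured receptors, dim ones included, 5 were higher in both pairs, 6 lower and 3 opposite, beside 25.1% higher and 26.9% lower over all 18193 measured genes. Tnfrsf1a, the main receptor for soluble TNF, had 870 and 654 in the AID-silenced clones and 514 and 352 in the control clones, a mean log2 difference of 0.80 ± 0.31 (SE), with limma adjusted p = 0.9996. Il10rb, the shared chain of the interleukin 10 receptor, had 3320 and 2035 against 1488 and 1582. Its second probe set gave 143 and 55.1 against 48.2 and 55.3, so there the clones of pair 2 did not differ. Il10ra, the chain that binds interleukin 10 specifically, was not above the bacterial controls in any clone, with 1.8 and 5.1 in the AID-silenced clones and 2.6 and 4.1 in the control clones. Il6st, the signalling chain gp130 of the interleukin 6 receptor, was higher within both pairs at all 4 of its probe sets, but its level followed the pair, at 1153 and 484 in the AID-silenced clones against 830 and 338 in the control clones. Il6ra, the ligand-binding chain, had 139 and 205 against 263 and 243, and its second probe set differed by 0.04.

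Of the genes that release or activate these cytokines, 11 of 13 were measured and 7 tested, with 0 called, 1 higher in both pairs, 1 lower and 5 opposite (2, 3 and 6 over the 11 measured). Adam17, the protease that sheds TNF from the cell surface, had 3364 and 3372 in the AID-silenced clones and 2782 and 1633 in the control clones. The same direction was seen at all 3 of its probe sets, with log2 fold changes of 0.63 to 0.72 and limma adjusted p = 0.9996, and the difference was larger in pair 2 (1.04) than in pair 1 (0.27). Rhbdf2, which brings Adam17 to the cell surface, had 307 and 221 against 384 and 288. Nrros, which tethers latent TGF-beta 1 on myeloid cells, had 385 and 653 against 467 and 254.

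**Figure D3:**
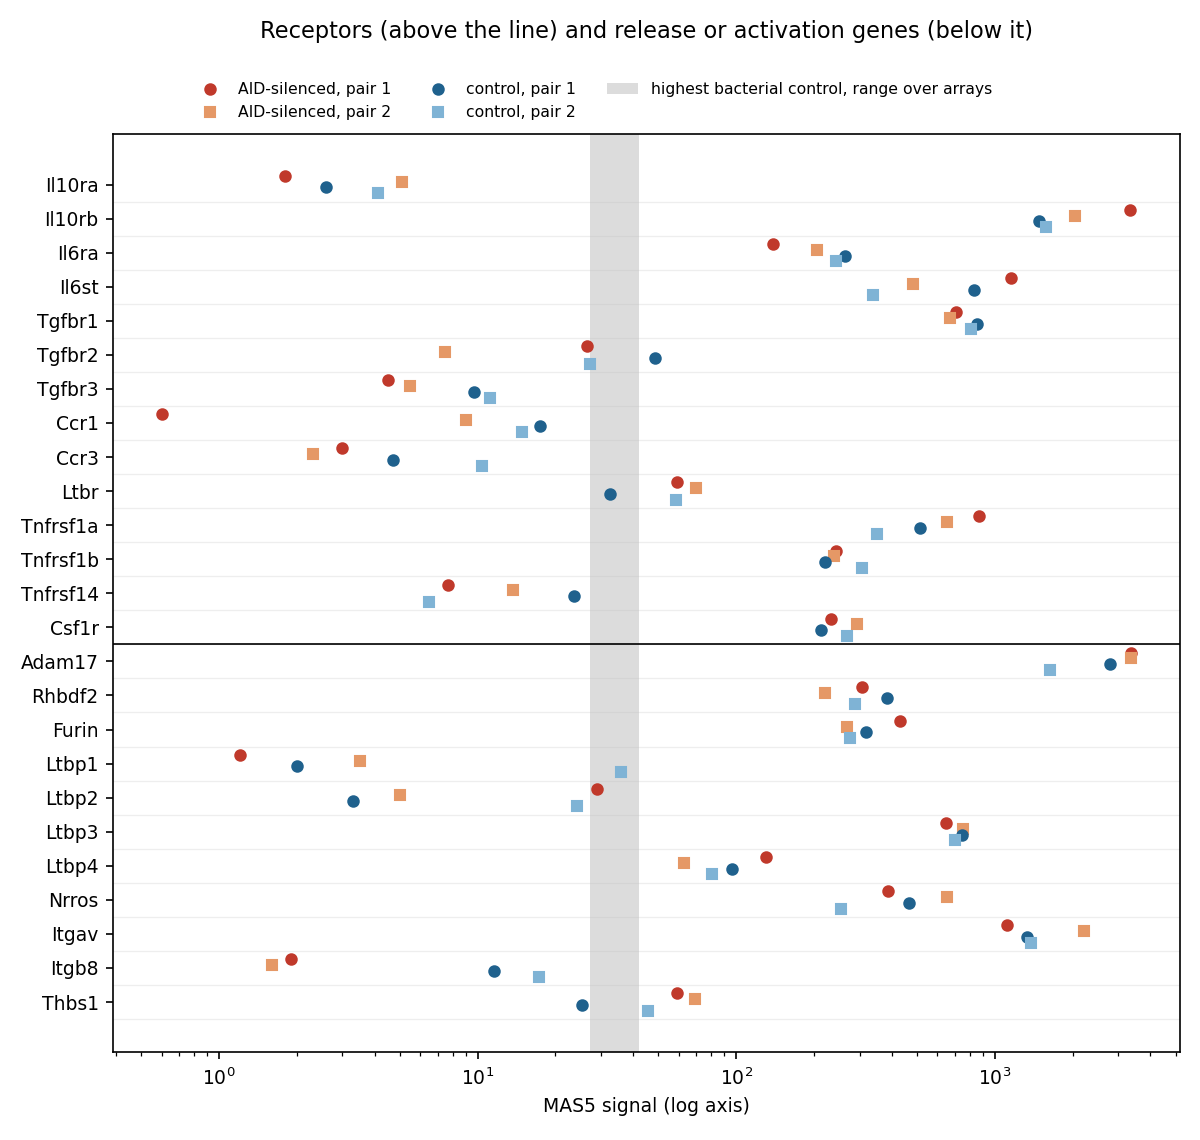
MAS5 signal (log axis) of the brightest probe set of 14 receptor genes, above the line, and 11 release or activation genes, below it, in the 2 AID-silenced and 2 control clones, with the bacterial control range of 27.3 to 41.9 in grey. Tnfrsf1a, Il10rb and Adam17 have both AID-silenced points right of both control points, and none passed the test. Of the 14 receptors, 3 have both AID-silenced points right of both control points and 6 have both left of them. Of the 11 release or activation genes, 2 have them right and 1 left. Over all probe sets the shares were 15.5% in each direction.

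Signalling genes downstream of the receptors were measured for 15 of 17 and tested for 12, of which 0 were called, 4 were higher in both pairs, 3 lower and 5 opposite (4, 4 and 7 over the 15 measured). Smad3, which carries TGF-beta signals to the nucleus, had 193 and 162 in the AID-silenced clones and 239 and 592 in the control clones, a mean log2 difference of -1.03 ± 0.45 (SE), with limma adjusted p = 0.9996. Its other tested probe set gave 43.4 and 39.7 against 82.9 and 154. Stat3, the transcription factor used by interleukins 6 and 10, had 1152 and 588 against 1203 and 796, and 2 of its 4 probe sets had that sign. Ski, a repressor of Smad signalling, had 515 and 453 against 337 and 411, with a second probe set that was opposite in the pairs (0.51 and -0.11), and Map3k14, the kinase of the alternative NF-kB pathway, 198 and 186 against 161 and 160. Of the 11 regulators of cytokine messenger RNA, all were tested, 0 were called, 3 were higher in both pairs, 1 was lower and 7 were opposite. Khsrp, which promotes decay of AU-rich transcripts, was the lower gene, with 2260 and 2261 against 2825 and 2912, but another of its probe sets was higher in both pairs, with 1436 and 1679 against 1267 and 1250. Rc3h2 (roquin 2), which degrades cytokine transcripts, had 891 and 1165 against 780 and 724.

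A further 61 of 65 listed cytokines and chemokines were measured, and 12 were tested, with 0 called, 2 higher in both pairs, 4 lower and 6 opposite (12, 15 and 34 over the 61 measured). Vegfa, the vascular growth factor, had 898 and 719 in the AID-silenced clones and 1134 and 872 in the control clones, and Mif, the macrophage migration inhibitory factor, was bright and level, with 24178 and 28045 against 24350 and 31200. Pf4, a platelet chemokine, had 59.2 and 97.1 against 48.2 and 25, and Cxcl13, the B cell attracting chemokine, 49.8 and 108 against 32.4 and 54.1. Il18, a cytokine activated by caspase 1, gave 34.7 and 37.3 in the AID-silenced clones against 122 and 145 in the control clones, and passed the filter through the control clones. It was above the bacterial controls in 1 of the 2 AID-silenced clones, and its measured difference was -1.52 ± 0.34 (SE), with limma adjusted p = 0.9996. Mif was picked out after its values were seen.

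The 3 measured genes on either side of each member were also read. These were 39 further genes, of which 21 were tested, with 0 called, 3 higher in both pairs, 9 lower and 9 opposite. Over all tested genes 26.7% were higher and 27.5% lower in both pairs. Among the 9 lower genes, Nfkbil1, Atp6v1g2, Ddx39b and Prrc2a all lie around Lta, Ltb and Tnf on chromosome 17. Next to Il10 on chromosome 1, Mapkapk2, a kinase that stabilises cytokine transcripts, was higher within both pairs, with 1868 and 1284 in the AID-silenced clones against 1814 and 944 in the control clones, differences of 0.04 and 0.44. Around Tnf on chromosome 17, Nfkbil1 gave 782 and 597 against 813 and 614, and Aif1, a macrophage gene, gave 3.4 and 3.0 against 32.6 and 21.9, all below the bacterial controls.

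Likeness of pattern was measured for Il10 and Ccl4, the tested members with the widest range over the clones, as the Euclidean distance between mean-centred log2 values over the 4 arrays. The tested genes closest to Il10 were Klf6 (0.245), Pcgf5 (0.270) and Gclc (0.278), and 13 of 10474 genes lay within a distance of 0.5. Klf6, a zinc finger transcription factor, had 120.5 and 212 in the AID-silenced clones and 275 and 530 in the control clones. Those closest to Ccl4 were Lnx2 (0.035), Ctdsp2 (0.039) and Arap1 (0.041), among 3831 genes within 0.5, so nearness to the flat pattern of Ccl4 picks out little.

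**Figure D4:**
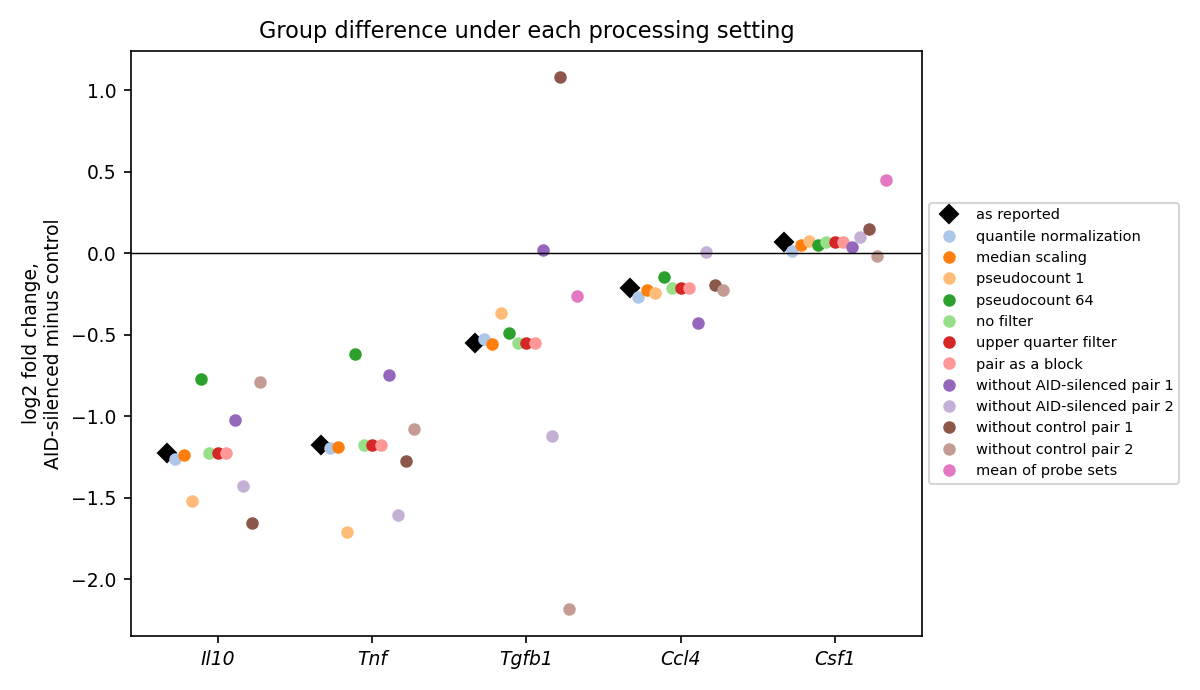
Log2 fold change, AID-silenced minus control, of 5 members under each processing setting, with the reported value as a black diamond and each alternative as a coloured point. Il10 runs from -1.66 to -0.77, Tnf from -1.71 to -0.62 and Tgfb1 from -2.18 to 1.08. The groups of Il10 and Tnf do not overlap, so a pseudocount or a left-out clone could not turn their sign. The filters and the pair block cannot move a fold change and fall on the diamond.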

How the data were processed

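RNA from 4 clones was measured on 4 arrays. Per the submitters' processing notes the authors used MAS5, and the deposited values are intensities, 1 signal per probe set on a linear scale, with no detection calls. Trimmed means of 500 on all arrays were checked, so nothing was normalised again. Log2(signal + 16) was used throughout, and it understates the differences of dim genes. After removal of 64 control probe sets, 22519 of 45037 entered limma 3.58.1 (R 4.3.3, lmFit and eBayes, trended and robust), with Benjamini-Hochberg adjustment over all tested probe sets. Each gene is represented by the probe set of highest mean log2 signal, with names from the platform annotation (34958 probe sets with 1 symbol and 932 with several, which name none), checked by gene identifier against GRCm38.p6, where 0 symbols changed. The number of arrays limits the precision of every value.

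In a simulation of this comparison over 22519 probe sets, limma recovered 4 of 50 planted differences of 1 log2 unit, 33 of 50 of 2, 48 of 50 of 3 and 50 of 50 of 4, with 7 false calls. The simulated noise was drawn independently for each array and probe set, with nothing shared within a pair. Its counts therefore need not hold for these arrays. The series text speaks of pairs of cells without saying what a pair shares. The change between pair 1 and pair 2 in AID-silenced clones correlated with that in control clones (r = 0.306 by Pearson and 0.336 by Spearman over the tested probe sets, which do not vary independently), and 1 alternative blocked on the pair. Further alternatives were median scaling, quantile normalisation, a pseudocount of 1 or 64, no filter, a filter at the brightest 0.25 of probe sets, the mean of a gene's probe sets and leaving out each clone. The members and gene lists were chosen with earlier results of these data known. Beyond the members, up to 4 tested genes of each list whose sign matched between pairs and whose mean differences were largest were eligible for naming. Genes named outside this rule (Marco, Adgre1, Mrc1, C1qa, Cd14, Itgam, Cd3d, Cd3e, Cd4, Sdc1, Jchain, albumin, Gfap, Mif, Nrros, Il10ra, Tgfb3, Tnfsf9, Apoa1 and Crygd) were chosen after their values were seen. The 3 measured genes on either side of each member were also eligible, as were the 3 genes most like each of the 2 tested members with the widest range. The level of the silenced gene is not reported here. The limma p-values set each group difference against a variance moderated across probe sets. With 1 array per clone, that variance mixes differences between clones with those between arrays.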

Additional observations from a re-analysis of the deposited data

Results flagged for a closer look

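Among the cytokine lists, 3 genes had measured values that differed by 2-fold or more with opposite signs in the 2 pairs. They were 1 of the 10 members (Tgfb1) and 2 of the 61 further cytokines and chemokines (Tgfb3 and Tnfsf9). Over the whole array, 447 of 45037 probe sets had such measured values. The measured Tgfb1 values differed by -2.75 log2 units in pair 1 and by 1.65 in pair 2, AID-silenced minus control, but with signals below the bacterial controls set to those controls the differences were -2.39 and 0.44, under 2-fold in pair 2. Tgfb3, another TGF-beta isoform, differed by 1.29 and -1.24, with signals of 28.9 and 2.2 in the AID-silenced clones and 2.3 and 27.0 in the control clones. Only the AID-silenced clone of pair 1 was above the bacterial controls of its array (27.3), so no difference can be read for Tgfb3, and 2 of 14 genes of unrelated tissues had the same measured pattern. Tnfsf9, the ligand of the costimulatory receptor 4-1BB, differed by -1.33 and 2.15, with signals of 425 and 311 in the AID-silenced clones against 1091 and 57.4 in the control clones, all above the bacterial controls. Each pair has 1 clone per group, so the difference between pairs was not tested, and of these genes only Tnfsf9 was bright enough for the limma test.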

How the results depend on the processing

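No member passed the adjusted threshold in limma under any alternative run, the lowest adjusted p being 0.244 for Il10 without the control clone of pair 1, while with the brightest 0.25 of probe sets no member was tested. Over the 8 alternatives that can move a fold change (3 others, the filters and the block, cannot), Il10 ran between -1.66 and -0.77. Tnf ran between -1.71 and -0.62, the ends being pseudocounts of 1 and 64. The groups of Il10 and Tnf did not overlap, so neither a pseudocount nor a left-out clone could have turned their sign. That both stayed below 0 is therefore no measure of stability. Single clones moved both: Il10 was -0.79 when the pair 2 control was left out and -1.02 when the pair 1 AID-silenced clone was, with limma p of 0.145 and 0.12 before adjustment, and Tnf was -0.74 without the AID-silenced clone of pair 1. Tgfb1 turned positive when either pair 1 clone was left out, to 1.08 (control) and 0.02 (AID-silenced), and reached -2.18 without the control clone of pair 2. The small differences of Ccl4 and Csf1 changed sign as well, with 1 clone left out ranging between -0.43 and 0.0088 for Ccl4 and between -0.015 and 0.15 for Csf1. Ccl4 was 0.0088 without the AID-silenced clone of pair 2 and Csf1 -0.015 without the control clone of pair 2, and the mean of the Csf1 probe sets gave 0.45. Over the whole array limma called 2 probe sets, 8 with the pair as a block, and 0 to 146 when 1 clone was left out: 0 without the AID-silenced clone of pair 1 (589 with an unadjusted p under 0.05), 146 when the pair 1 control was dropped and 52 when the pair 2 control was. The number of probe sets past 2-fold with matching signs in the 2 pairs was 196, and became 106 with a pseudocount of 64, 642 without a filter and 42 with the stricter filter. The number with opposite signs was 80, and became 122 and 27 with pseudocounts of 1 and 64, 447 without a filter and 12 with the stricter filter. The filters change how many probe sets are counted, and other causes were not tested. With 1 clone left in a group, that clone is assumed to vary like the others. Signals near the bacterial controls limit what can be said of Il6, Ccl3, Ccl5, Lta, Ltb, Tnf, Tgfb1 and Tgfb3, and of Il10 in the AID-silenced clones.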
